A study of Mus musculus with 6 samples.

Results

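Collagens are the triple-helical proteins of the extracellular matrix, each assembled from 3 alpha chains that are encoded by separate genes. The collagen genes examined here were the rows of a spleen RNA count table whose identifier mapped to a symbol of the form Col, number, a, number. There were 44 such genes among 31771 rows, and 40 of them passed the expression filter and were tested. Col9a1, Col10a1, Col24a1 and Col25a1 were not tested, having at most 25 counts in any library. Of the 40 tested genes, Col4a1, Col4a2 and Col5a1 rose in the mutants, Col6a4 and Col19a1 fell, and 35 did not pass the test.

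A chain is hydroxylated and folded in the endoplasmic reticulum, secreted as a procollagen, trimmed by proteases and cross-linked outside the cell by lysyl oxidases. Fibrillar collagens form the fibres of capsule, trabeculae and vessel walls, type IV collagen forms the network of basement membranes, and other classes decorate or anchor these structures. In spleen, basement membrane collagen lies around vessels and as ring fibres around the venous sinuses, while reticular fibres of the pulp hold types I and III. Fibroblastic reticular cells, smooth muscle, endothelium and megakaryocytes are among the cells that can contribute matrix.

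The data came from pieces of snap-frozen spleen of 6 mice of the strain C57BL/6, 3 of them mutant and 3 controls. All 3 mutants had the genotype VEC-Cre, SB Transposase and onc2, that is, Cre recombinase driven by the promoter of VE-cadherin together with a Sleeping Beauty transposase and its mobile onc2 transposon. The 3 controls were WT, labelled with none of these alleles, so Cre, transposase and transposon came as one bundle and cannot be told apart. The VE-cadherin promoter is active in endothelium and also in blood cells that descend from embryonic endothelium, and the transposon can land at different sites in each animal and cell. The comparison asked how the make-up of the mutant spleen differed. Ages were not given.

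Library totals were 72902118 to 79258116 counts. Animals of the mutant group varied more than controls: the common biological variation that edgeR fitted over all genes was 72.7% for mutants and 17.1% for controls. The libraries also differed in sex: Xist stood at 1513 and 580 CPM (counts divided by the total of the library and put on a common scale) in mutants 1 and 2 but at 0.586 in mutant 3 and 0.423 to 0.663 in the controls. Mutant 3 was therefore also set against the controls alone. The spleen's B-cell markers summed to 3235, 3615 and 3704 CPM in the controls and to only 71.4, 45.5 and 26.3 CPM in the mutants, so these lymphoid markers of the labelled tissue were nearly absent from the mutant libraries. In pieces of tissue, fewer cells of a type and less RNA per cell cannot be told apart. The p-values measure the spread between these 6 animals. Below, the 3 values of a group are always those of animals 1, 2 and 3. Fold changes are log2 of mutant over control ± SE from edgeR, and adjusted p-values cover all tested genes.

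The start regions of the genes with the clearest differences are shown first, since Col4a1 and Col4a2 are transcribed away from each other from one shared stretch and the other genes start on their own. The sequences are RefSeq windows on GRCm38.p6, 5′ to 3′ on the strand of the gene (the plus strand for the Col4 pair), and capitals mark matches to the motifs GGGCGG (GC box) and CCAAT on either strand. The Col4 line covers the overlap of the pair's first exons, the Col5a1 line the 250 bases before its start, and the Col6a4 line 158 bases that end 92 bases before its RefSeq start.
Col4a1 and Col4a2, chr8:11312801-11312830: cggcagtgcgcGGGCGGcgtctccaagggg
Col5a1, chr2:27886175-27886424: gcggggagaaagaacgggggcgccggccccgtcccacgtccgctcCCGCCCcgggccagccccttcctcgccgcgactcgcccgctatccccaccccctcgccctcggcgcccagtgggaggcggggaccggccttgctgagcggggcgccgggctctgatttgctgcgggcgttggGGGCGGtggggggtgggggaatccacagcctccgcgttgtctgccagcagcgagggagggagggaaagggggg
Col6a4, chr9:106096784-106096941: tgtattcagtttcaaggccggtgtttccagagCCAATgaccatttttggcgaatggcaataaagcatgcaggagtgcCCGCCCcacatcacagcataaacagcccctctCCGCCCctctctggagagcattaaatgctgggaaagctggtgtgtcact

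The Col4 stretch of 30 bases held 1 GC box, the Col5a1 stretch of 250 bases 2, and the Col6a4 stretch of 158 bases 2 GC boxes and 1 CCAAT. These lengths differ, so the counts are not comparable. Windows of 300 bases around the start (250 before, 50 after) were at hand for 35 of the 44 collagen genes, 38 windows in all. The full Col4a1 window held 1 GC box and 1 CCAAT, and the Col4a2 window 3 GC boxes and 1 CCAAT. The GC box was present in 60.5% of these windows, against 35.7% of the 32851 windows of all genes. The letters CCCTCCCC, also searched on both strands and able to share letters with a GC box, were in 28.9% of the collagen windows and 10.8% of all windows. CCAAT was in 34.2% against 37.4% and TATAAA in 13.2% against 13.6%. The collagen windows were also richer in G and C, with a median of 59.8% against 52.7%. These matches describe letters in a window only.

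As a family, collagen transcripts summed to 853, 1112 and 1343 CPM in the mutants and to 681, 673 and 768 CPM in the controls. All 3 mutants lay above all 3 controls in this sum, with means of 1103 ± 245 and 707 ± 52.4 CPM (SD, n = 3). Most genes did not share the higher sum: the median log2 fold change of the 40 tested collagen genes was -0.21, against 0.10 over all tested genes. Counting calls, 3 of 40 rose (7.5%), where 5.08% of all tested genes rose, and 2 of 40 fell (5.0%), where 6.90% of all genes fell. Of the 41 collagen genes that DESeq2 tested, it called 6 higher, where it called 10.3% of all genes, and 6 lower, where it called 11.1%. All mutants exceeded all controls for 7 collagen genes (17.5%, against 18.0% of all genes), and all mutants lay below all controls for 12 (30%, against 22.6%). The family was thus called about as often as genes at large, and what follows describes which members changed and which did not.

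**Figure D1:**
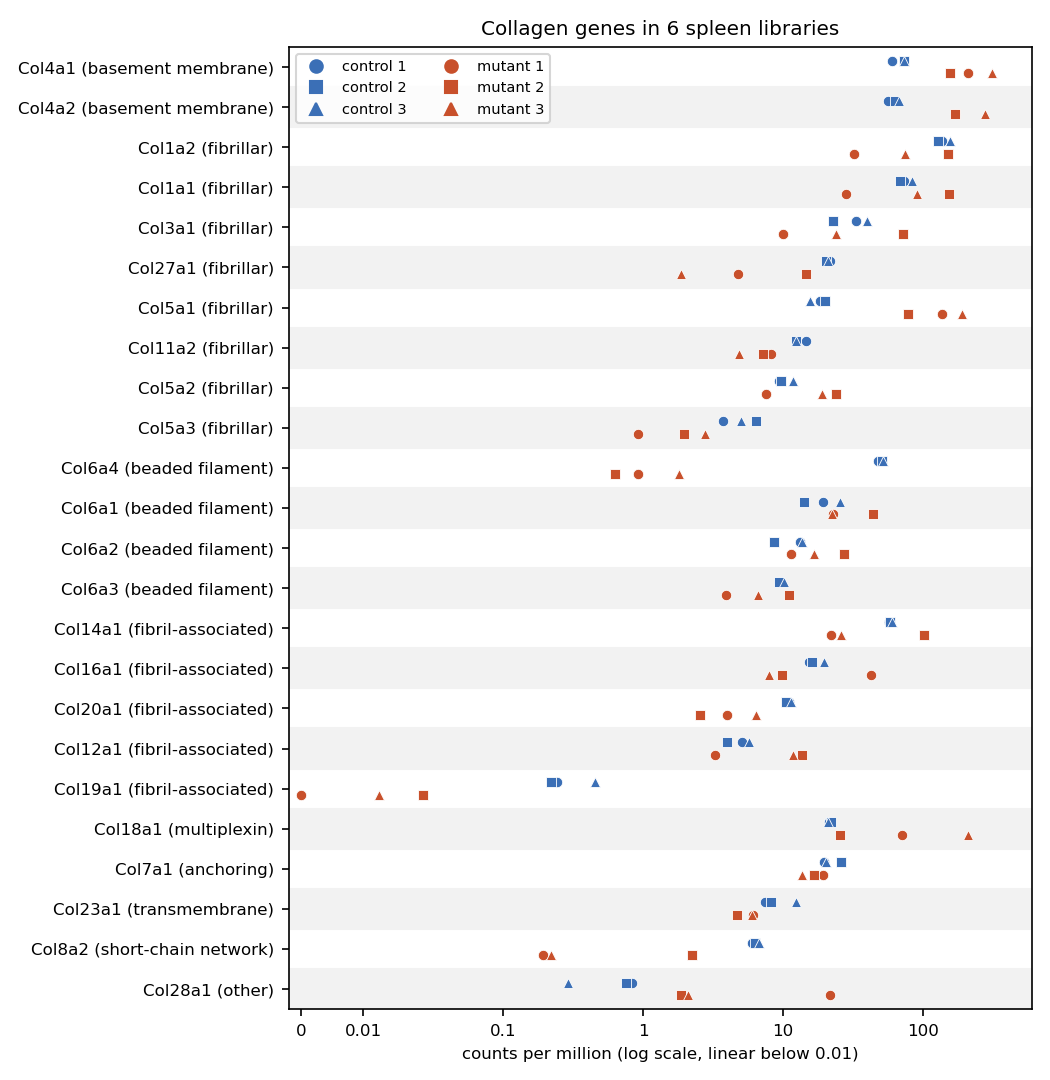
Level of the 24 collagen genes described in full, in CPM on a log axis that is linear below 0.01, with 1 point for each of the 3 control (blue) and 3 mutant (red) libraries and the structural class in brackets. Col4a1, Col4a2 and Col5a1 had all mutants to the right of the controls, and Col6a4 and Col19a1 had all mutants far to the left. Col1a1 and Col3a1 had mutants on both sides. For Col1a2, mutants 1 and 3 lay to the left of the controls and mutant 2 among them.

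The 2 most abundant basement membrane chains rose together. Col4a1 and Col4a2 encode the chains of the common type IV collagen, 2 of the first to 1 of the second. Col4a1 (chr 8, 11198423 to 11312826, minus strand) stood at 211, 155 and 313 CPM in the mutants and at 60.2, 72.5 and 73.04 CPM in the controls. Every mutant was above every control, and the log2 fold change was 1.72 ± 0.26 (adjusted p = 0.0162). Col4a2 (chr 8, 11312805 to 11449287, plus strand) stood at 168, 169.7 and 277 CPM in the mutants and at 56.2, 62.8 and 67.8 CPM in the controls. Its groups did not overlap either, and its log2 fold change was also 1.72 ± 0.23 (adjusted p = 0.0126). Mutant 3 was highest for both genes. With mutant 3 alone against the controls the log2 fold changes were 2.15 and 2.11. Both calls were lost when any 1 control was left out, with adjusted p between 0.0945 and 0.101 for Col4a1 and between 0.0836 and 0.0875 for Col4a2.

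The ratio of the 2 chains did not differ beyond the spread between animals. Log2 of Col4a1 over Col4a2 was 0.33, -0.13 and 0.17 in the mutants and 0.10, 0.21 and 0.11 in the controls. The groups overlapped, and the mean difference of -0.01 gave p = 0.9 in an exact 2-sided permutation test, which cannot go below 0.1 with 3 animals a group. The first exons of these genes overlap by 22 bases on opposite strands, and the strand setting of the counting is not given in the sources used here, so a few reads could count for either.

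The 4 remaining type IV genes encode the chains of specialised basement membranes, as in kidney, and did not pass the test. Col4a3, named after its values were seen, stood at 1.15, 0.377 and 5.20 CPM in the mutants and at 0.338, 0.0513 and 0.0379 CPM in the controls. The lowest mutant was just above the highest control, and the log2 fold change of 3.92 ± 1.32 had an adjusted p of 0.106. Col4a4, whose start lies 71 bases from that of Col4a3 on the opposite strand, ranged over 0.521 to 1.84 CPM in the mutants and 0.603 to 1.24 CPM in the controls, so its groups overlapped. Col4a5 and Col4a6, a second divergent pair on chromosome X, were between 0.121 and 1.48 CPM in all libraries, and their groups overlapped too.

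Col18a1 encodes the core of a basement membrane proteoglycan whose end fragment is endostatin, and with Col15a1 it makes up the multiplexins. Col18a1 (chr 10, 77052178 to 77166548) stood at 70.2, 25.4 and 208 CPM in the mutants and at 21.3, 21.8 and 20.9 CPM in the controls. The controls were nearly equal, all 3 mutants were above them, and the mutants differed 8.18-fold among themselves. The log2 fold change of 2.21 ± 0.70 did not pass (adjusted p = 0.0905). Mutant 3 alone against the controls gave 3.24. Col15a1, from 1.03 to 5.81 CPM in all libraries, had overlapping groups.

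Marker levels are given beside these genes. Among the mutants, Col4a1, Col18a1 and the fibrillar gene Col5a1 were each highest in mutant 3, then mutant 1, then mutant 2, while Col4a2 was highest in mutant 3 and about equal in the others. The summed level of 7 megakaryocyte and platelet markers had the order of Col4a1, at 3036, 1026 and 4715 CPM in the mutants against 315 to 599 CPM in the controls. Of these markers Pf4 and Itga2b rose, where 5.08% of all tested genes rose, and none was at 0 in any library. All mutants were above all controls for 4 of 7, against 18.0% of all genes. Pf4 kept its call in 11 of 16 alternatives and Itga2b in 6, and both lost it without any 1 control. The summed level of 8 endothelial markers was 605, 417 and 730 CPM in the mutants and 532 to 596 CPM in the controls, with Egfl7 higher, Pecam1 lower and none at 0. Egfl7 kept its call in 8 of 16 alternatives and Pecam1 in 13, both losing it without any 1 control. Cdh5, which encodes VE-cadherin, was at 44.1, 42.6 and 164.5 CPM in the mutants and at 38.9 to 44.6 CPM in the controls. The part of these cells in the collagen changes was not tested.

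Among fibrillar collagens 1 of the 10 tested genes rose, Col5a1, which encodes the main chain of type V collagen, a minor component that sets the start and width of type I fibrils. Col5a1 (chr 2, 27886425 to 28039514, plus strand) stood at 136, 78.2 and 189 CPM in the mutants and at 18.5, 19.9 and 15.5 CPM in the controls. The lowest mutant was well above the highest control, the group means were 134 ± 55.2 and 17.9 ± 2.27 CPM (SD, n = 3), and the log2 fold change was 2.89 ± 0.33 (adjusted p = 0.00883). With mutant 3 alone it was 3.35. The call was lost without any 1 control, at adjusted p of 0.0644 to 0.068. An opposite-strand transcript, Gm13372, shares 113 exonic bases with Col5a1 and stood at 0.847 to 1.28 CPM in the mutants and at most 0.372 CPM in the controls, far below Col5a1 itself.

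The partner chains of Col5a1 did not pass the test. Col5a2, whose product joins 2 Col5a1 chains in the common type V molecule, stood at 7.49, 23.7 and 19.1 CPM in the mutants and at 9.32, 9.59 and 11.8 CPM in the controls. Mutant 1 was below all controls and the other mutants were above them (log2 fold change 0.74 ± 0.46, adjusted p = 0.318). Log2 of Col5a1 over Col5a2 was 4.17, 1.72 and 3.30 in the mutants and 0.98, 1.05 and 0.39 in the controls. The groups did not overlap, and the mean difference of 2.26 had an exact permutation p of 0.1, the smallest possible, or 0.2 after adjustment over 6 ratios. Col5a3, another type V chain, stood at 0.919, 1.95 and 2.75 CPM in the mutants and at 3.69, 6.43 and 5.03 CPM in the controls. All mutants were below all controls, without passing the test (-1.42 ± 0.51, adjusted p = 0.120).

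Type I and type III collagen, the bulk of fibres and reticulin, varied more between mutants than between groups. Col1a1 (chr 11, 94936224 to 94953042) stood at 28.1, 152 and 91.1 CPM in the mutants and at 73.4, 68.6 and 83.3 CPM in the controls. Mutant 1 was below the controls and the other mutants above them, a 5.42-fold range, with a log2 fold change of 0.31 ± 0.58 (adjusted p = 0.748). Col1a2 (chr 6, 4504814 to 4541544), which encodes the second chain of type I, stood at 31.9, 151.6 and 74.7 CPM in the mutants and at 137, 127 and 155.5 CPM in the controls. Mutant 2 was within the controls' range and mutants 1 and 3 were below it (-0.66 ± 0.56, adjusted p = 0.464). Col3a1, the single chain of type III, stood at 9.93, 72.0 and 23.9 CPM in the mutants and at 33.4, 22.8 and 39.6 CPM in the controls. Its mutants spanned 7.25-fold, with mutant 2 above, mutant 1 below and mutant 3 within the controls (0.20 ± 0.72, adjusted p = 0.872). The order of the mutants, 2 above 3 above 1, was the same for all 3 genes. It differed from the order of Col4a1 and Col5a1.

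Type I collagen is normally built from 2 chains of Col1a1 and 1 of Col1a2. Log2 of Col1a1 over Col1a2 in CPM was -0.90, -0.89 and -0.90 in the controls and -0.18, 0.01 and 0.29 in the mutants. The controls were almost identical and every mutant was above them. The mean difference was 0.93, with the smallest exact permutation p that is possible, 0.1 (0.2 adjusted over 6 ratios). Log2 of Col3a1 over Col1a1 was -1.49, -1.08 and -1.93 in the mutants and -1.13, -1.59 and -1.07 in the controls, with overlapping groups (mean difference -0.24, exact permutation p = 0.6).

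**Figure D2:**
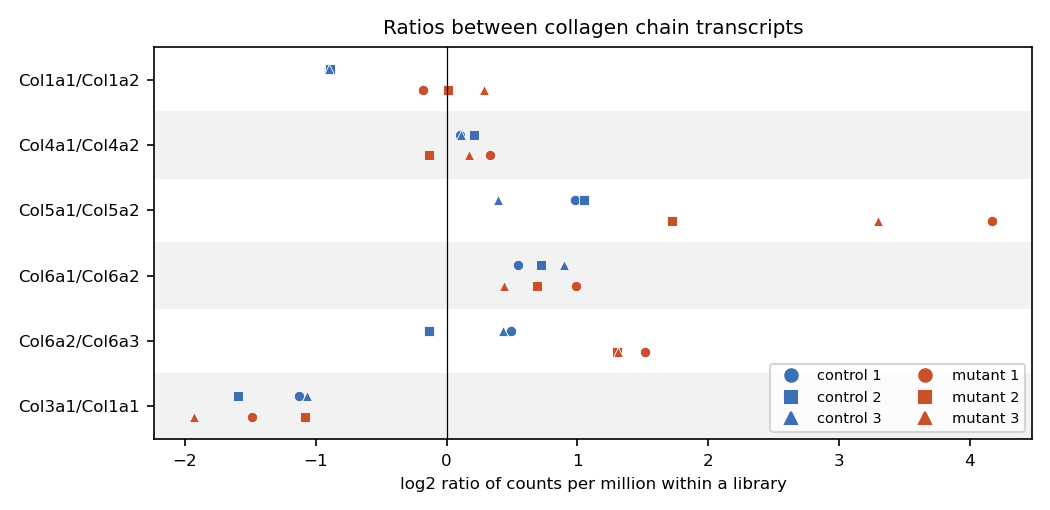
Log2 ratio of the CPM of 2 collagen chains within each library, for 6 pairs, with 1 point for each of the 3 control (blue) and 3 mutant (red) libraries and a line at equal levels. Mutants and controls did not overlap for Col1a1/Col1a2, Col5a1/Col5a2 and Col6a2/Col6a3, and overlapped for the other pairs.

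Of the minor fibrillar genes, Col11a2, a chain of the type XI collagen known from cartilage, stood at 8.13, 7.19 and 4.81 CPM in the mutants and at 14.6, 12.3 and 12.4 CPM in the controls. Col27a1, a fibrillar collagen also of developing cartilage, stood at 4.76, 14.5 and 1.88 CPM in the mutants and at 21.5, 20.3 and 20.8 CPM in the controls. Both genes had all mutants below all controls but did not pass (-0.95 ± 0.31, adjusted p = 0.101, and -1.51 ± 0.74, adjusted p = 0.222). Col2a1 and Col11a1, the main collagens of cartilage, stayed under 0.4 CPM in every library.

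The largest fitted change in the family was in type VI collagen, which forms beaded filaments near cell surfaces. Col6a4 (chr 9, 105989454 to 106096783, minus strand) encodes a chain that can take the place of the Col6a3 product. It stood at 0.919, 0.632 and 1.80 CPM in the mutants and at 47.8, 50.7 and 51.7 CPM in the controls. These were 67, 47 and 138 counts against 3535, 3954 and 4097. The lowest control was more than an order of magnitude above the highest mutant. The means were 1.12 ± 0.608 and 50.1 ± 2.01 CPM (SD, n = 3), and the log2 fold change was -5.50 ± 0.44 (adjusted p = 0.00309). The gene passed in all 16 alternatives, with log2 fold changes of -5.98 to -4.84 and adjusted p of at most 0.0298. The B-cell markers were lower too: 5 of 5 (Cr2, Cd79a, Ms4a1, Fcer2a and Cd79b) fell, where 6.90% of all tested genes fell. The summed level of these markers was 71.4, 45.5 and 26.3 CPM in the mutants and 3235 to 3704 CPM in the controls. Among the mutants the orders differed: this sum was lowest in mutant 3, where Col6a4 was highest. None of these markers was at 0 in any library. Their part in the Col6a4 result was not tested. The opposite-strand transcript Gm47575, which shares 162 exonic bases with Col6a4, was at 0 in the mutants and at most 0.114 CPM in the controls.

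The classical type VI chains behaved otherwise. Col6a1 stood at 22.8, 44.0 and 22.5 CPM in the mutants and at 19.4, 14.1 and 25.7 CPM in the controls. Col6a2 stood at 11.5, 27.2 and 16.6 CPM in the mutants and at 13.2, 8.57 and 13.8 CPM in the controls. Mutant 2 was highest for both, the groups overlapped, and neither passed (0.63 ± 0.39, adjusted p = 0.316, and 0.67 ± 0.41, adjusted p = 0.315). Col6a3, the largest of the classical chains, stood at 3.92, 10.9 and 6.64 CPM in the mutants and at 9.39, 9.37 and 10.2 CPM in the controls. Mutant 2 exceeded the controls and mutants 1 and 3 lay below them (-0.40 ± 0.44, adjusted p = 0.580).

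Of 2 ratios within the trimer, 1 had groups that were apart. Log2 of Col6a2 over Col6a3 was 1.52, 1.30 and 1.31 in the mutants and 0.49, -0.13 and 0.43 in the controls, without overlap. The mean difference of 1.11 had an exact permutation p of 0.1 (0.2 adjusted over 6 ratios). Log2 of Col6a1 over Col6a2 overlapped, with 0.99, 0.69 and 0.44 in the mutants and 0.55, 0.72 and 0.90 in the controls (mean difference -0.01, exact permutation p = 0.9). Col6a5 and Col6a6 follow Col6a4 in tandem on chromosome 9, at gaps of 28810 and 27917 bases, and were much lower. Col6a5 was at 0.0274 to 0.793 CPM in the mutants and 1.26 to 3.43 CPM in the controls, all mutants below all controls without passing (-2.24 ± 1.05, adjusted p = 0.205). Col6a6 reached 2.53 CPM in mutant 2 and stayed under 1 CPM in every other library.

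The fibril-associated collagens bind to the surface of fibrils and do not form fibres themselves. Of their 8 tested genes 1 fell, Col19a1 (chr 1, 24261890 to 24587472, minus strand), a rare collagen of basement membrane zones. It stood at 0, 0.0269 and 0.0130 CPM in the mutants and at 0.244, 0.218 and 0.454 CPM in the controls. The groups did not overlap, but the gene was scarce, with 3 counts over the mutants and 71 over the controls. The ratio of control to mutant counts was 22.9, with an exact 95% interval of 7.54 to 114 that covers counting error only. The fitted log2 fold change was -4.33 ± 0.88 (adjusted p = 0.0313). The call was lost without mutant 3 (adjusted p = 0.0807), without any 1 control (0.126 to 0.153), and in 3 other alternatives.

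Col14a1, the most abundant of this class and a collagen that regulates fibril growth, stood at 21.9, 101 and 25.8 CPM in the mutants and at 56.9, 57.9 and 60.0 CPM in the controls. The controls were close together, mutant 2 was above them and mutants 1 and 3 were below (-0.18 ± 0.64, adjusted p = 0.874). Col12a1, found in tissues under tension, stood at 3.25, 13.7 and 11.7 CPM in the mutants and at 5.05, 3.97 and 5.74 CPM in the controls. Mutant 1 was below the controls and the others above (0.99 ± 0.57, adjusted p = 0.291).

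Col16a1 had a pattern of its own, at 42.1, 9.86 and 7.90 CPM in the mutants and 15.3, 15.98 and 19.5 CPM in the controls. Mutant 1 was above and mutants 2 and 3 below every control (0.24 ± 0.65, adjusted p = 0.831). Without mutant 1 the log2 fold change was -0.88, so its sign depended on that library. Col20a1 stood at 3.99, 2.54 and 6.40 CPM in the mutants and at 10.9, 10.5 and 11.5 CPM in the controls. All mutants were below all controls, just short of the threshold (-1.35 ± 0.38, adjusted p = 0.0688). A same-strand transcript, BX649560.1, shares 79 exonic bases with it and stood at 3.39 to 6.42 CPM, so some reads could belong to either. Col9a3, a chain of the type IX collagen of cartilage, ranged over 1.25 to 3.50 CPM with overlapping groups, and Col9a2 and Col22a1 stayed under 0.7 CPM.

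Few of the remaining classes were abundant. Col7a1, the anchoring fibril collagen of skin, stood at 19.4, 16.7 and 13.5 CPM in the mutants and at 19.5, 25.9 and 20.2 CPM in the controls. The highest mutant was only just below the lowest control (-0.39 ± 0.25, adjusted p = 0.327). Col23a1, a transmembrane collagen, stood at 6.10, 4.69 and 6.02 CPM in the mutants and at 7.48, 8.199 and 12.3 CPM in the controls. All mutants were below all controls here too, without passing (-0.72 ± 0.31, adjusted p = 0.171). The transmembrane genes Col13a1 (2.34 to 3.92 CPM in the mutants, 4.19 to 4.57 CPM in the controls) and Col17a1 (0.104 to 1.22 and 1.49 to 2.09 CPM) shared this arrangement and did not pass.

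The 2 chains of type VIII collagen, a short-chain network of vessel walls and Descemet's membrane, had fitted changes of opposite sign, and neither passed. Col8a2 stood at 0.192, 2.22 and 0.222 CPM in the mutants and at 6.00, 6.28 and 6.70 CPM in the controls. All mutants were below all controls (-2.77 ± 1.07, adjusted p = 0.141). Col8a1, named after its values were seen, stood at 0.521, 6.41 and 2.35 CPM in the mutants and at 0.717, 0.436 and 0.669 CPM in the controls, where mutant 1 lay among the controls (2.40 ± 0.92, adjusted p = 0.140). Col28a1, a collagen known from Schwann cell basement membranes, stood at 21.7, 1.86 and 2.10 CPM in the mutants and at 0.839, 0.757 and 0.290 CPM in the controls. All mutants were above the controls, mutant 1 by far the most (3.74 ± 1.17, adjusted p = 0.0899). Col26a1 was also above the controls in all mutants, at 0.638 to 0.793 CPM against 0.231 to 0.541 CPM.

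**Figure D3:**
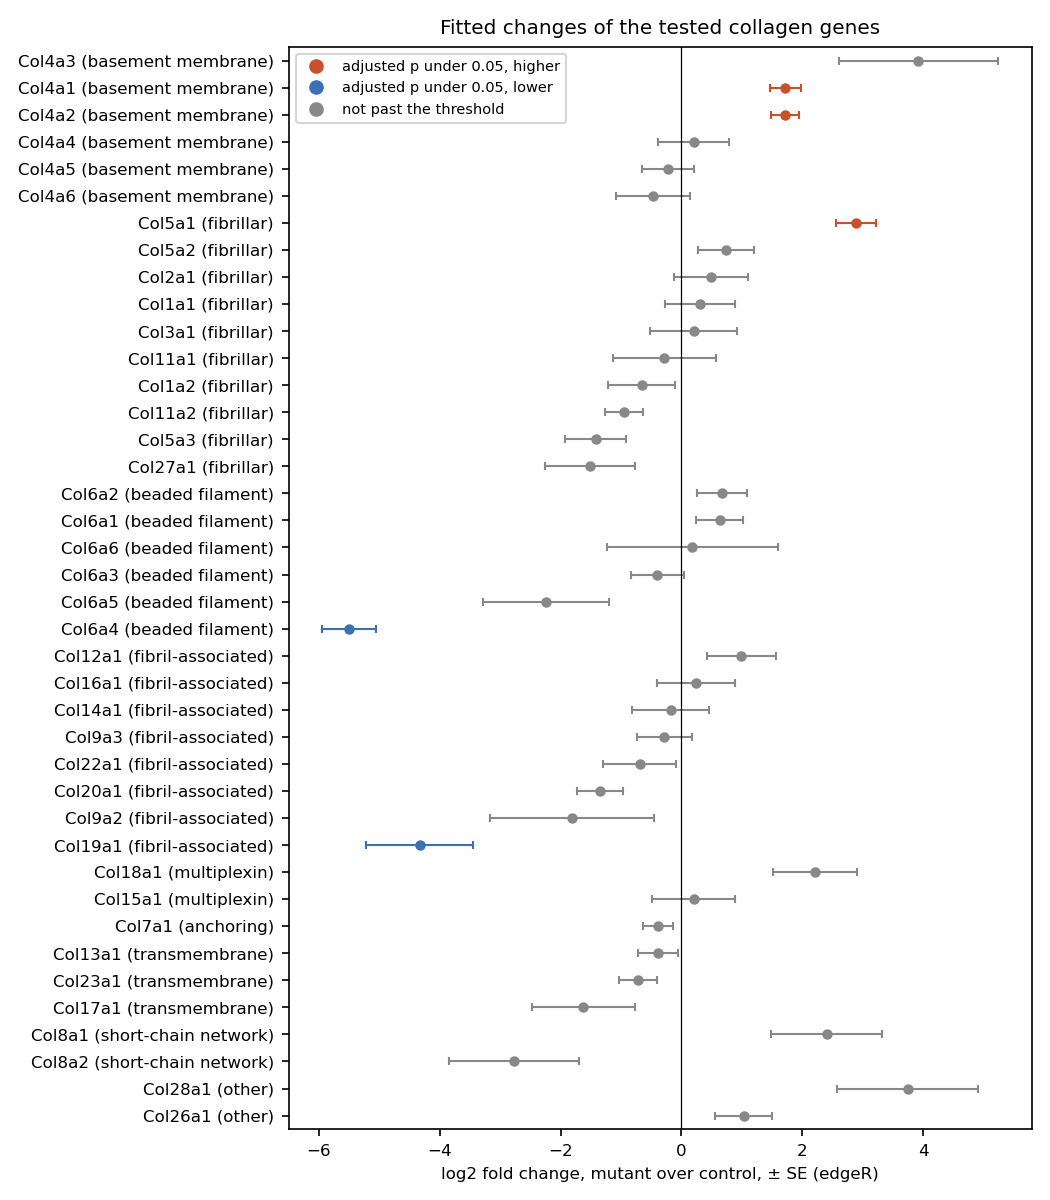
Fitted log2 fold change of mutant over control with its SE for the 40 tested collagen genes, grouped by structural class (edgeR). Red marks genes higher and blue genes lower at an adjusted p under 0.05, and grey marks the 35 others. The intervals of most grey genes are wider than those of Col4a1 and Col4a2.

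Spread among the mutants was a feature of most of the family. The coefficient of variation was larger in the mutants than in the controls for 36 of the 40 tested genes, with medians of 62.2% and 18.0%. Which animal was highest also differed, mutant 1 being the highest mutant for 11 genes, mutant 2 for 19 and mutant 3 for 10. Leaving out mutant 2 raised the collagen genes called lower from 2 to 8, which then were Col1a2, Col6a4, Col6a6, Col8a2, Col14a1, Col19a1, Col20a1 and Col27a1. It raised those called higher from 3 to 5, with Col18a1 and Col28a1 joining. Calls over all genes rose too, to 15.3% lower and 13.6% higher. Without mutant 1, 6 genes were higher, among them Col5a2, Col8a1 and Col12a1, where 8.73% of all genes were higher. Mutant 3 alone against the controls gave 9 higher and 17 lower, on a background of 25.7% and 26.9% of all genes, under the assumption that a lone mutant varies like the controls. Without any single control, 0 collagen genes were called higher and 1, Col6a4, lower (at an unadjusted p, 3 to 6 were higher). This loss was general, since only 0.0195% to 0.0392% of all genes were then called higher and 0.581% to 0.636% lower. The log2 fold changes without a control were 1.64 to 1.78 for Col4a1, 1.66 to 1.76 for Col4a2 and 2.78 to 2.99 for Col5a1.

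Transcript length was taken into account to compare genes with each other, as CPM per kilobase of merged exons. In the controls Col1a1 was the highest collagen (10.4 to 12.7), level with Col1a2 within their spread (10.2 to 12.5), followed by Col4a2 (8.48 to 10.2), Col4a1 (8.07 to 9.79), Col14a1 (8.12 to 8.56) and Col6a4 (5.61 to 6.06). Col4a2 and Col4a1 did not differ beyond their spread, and the range of Col14a1 overlapped both. With the longest transcript as the length, Col1a2 came first, since its merged exons (12426 bases) are much longer than that transcript (5348 bases). In the mutants the order was another one. Col4a1, at 28.3, 20.8 and 41.9 per kilobase, and Col4a2, at 25.4, 25.6 and 41.9, were among the first 3 in each animal. With the longest transcript as the length, mutant 2 had Col1a2 first and Col4a1 behind Col4a2 and Col1a1. In mutants 1 and 3 they were joined at the top by Col5a1 (16.1 and 22.2) and Col18a1 (10 and 29.6), and in mutant 2 by Col1a1 (23.2) and Col14a1 (14.4).

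Summed by structural class on this length scale, basement membrane collagen made up 45.8%, 32.1% and 46.6% of the family in the mutants and 19.6%, 22.8% and 20.9% in the controls. Every mutant was above every control. Fibrillar collagen was 22.4%, 39.1% and 26.4% in the mutants and 38.5%, 35.9% and 37.3% in the controls, where mutants 1 and 3 were below the controls and mutant 2 just above them. With the longest transcripts mutant 2 was within the controls, at 45.6% against 47.1%, 44.2% and 46.2%. The share of beaded filament collagen was lower in every mutant, at 5.94%, 10.1% and 4.39% against 14.7%, 13.1% and 15.3%. Fibril-associated collagens were at 9.57%, 12.3% and 3.98% against 16%, 16.2% and 15.5%, again a lower share in every mutant. The summed levels of both classes were below the controls in mutants 1 and 3 only. In mutant 2, fibril-associated collagens stood at 18.0 CPM per kilobase, against 13.7, 13.8 and 15.15 in the controls. Beaded filament collagen there stood at 14.65, against 12.7, 11.2 and 14.9. Multiplexins took 8.99%, 3.11% and 16.4% in the mutants and 3.77% to 4.07% in the controls, so mutant 2 lay below the controls. With the longest transcripts as lengths the basement membrane shares were 42.9%, 27.4% and 42.9% against 15.9%, 18.9% and 17.0%. The shares add up to a whole, so a larger share of one class lowers the others.

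**Figure D4:**
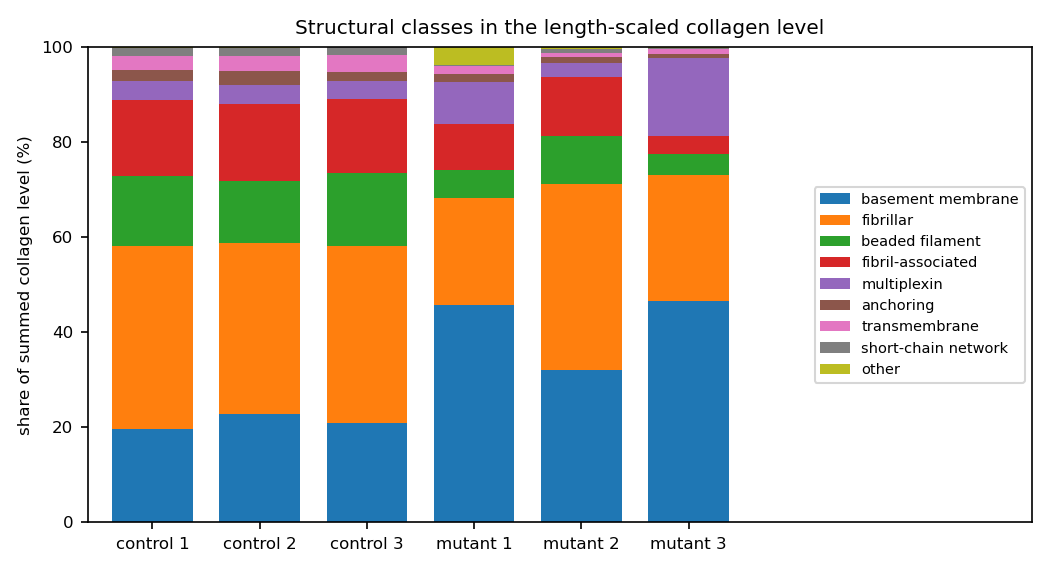
Share of the summed, length-scaled collagen level (CPM per kilobase of merged exons, in percent) taken by each structural class in each of the 6 libraries. The basement membrane part is 19.6% to 22.8% in the controls and 32.1% to 46.6% in the mutants, and the fibrillar part is larger in mutant 2 (39.1%) than in mutants 1 and 3 (22.4% and 26.4%).

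Genes that act on collagens were read from 7 lists. Beside them, edgeR called 5.08% of all tested genes higher and 6.90% lower, and DESeq2 called 10.3% and 11.1%. In lists this short, 1 call does not set a list apart from genes at large. Of 20 genes for chain folding and modification, 2 rose and 1 fell (median log2 fold change 0.28). P4hb, the disulfide isomerase subunit of prolyl hydroxylase, stood at 559, 360.2 and 581 CPM in the mutants and at 201, 205 and 220.1 CPM in the controls. Sparc, a matrix protein that binds collagen, stood at 249, 279.8 and 427 CPM in the mutants and at 145, 155.5 and 169.8 CPM in the controls. Both had all mutants above all controls (1.26 ± 0.21, adjusted p = 0.0201, and 1.03 ± 0.23, adjusted p = 0.0418). P4ha3, a catalytic prolyl hydroxylase subunit, stood at 0.411, 0.242 and 0.300 CPM in the mutants and at 1.79, 1.75 and 2.25 CPM in the controls, all mutants below (-2.59 ± 0.39, adjusted p = 0.016). Serpinh1, the collagen chaperone Hsp47, stood at 26.6, 30.7 and 50.6 CPM in the mutants and at 35.2, 35.2 and 39.6 CPM in the controls, so its groups overlapped (-0.02 ± 0.26, adjusted p = 0.960).

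Of 12 tested genes for trimming and cross-linking, 2 rose and 0 fell (median 0.73). Lox, a lysyl oxidase that starts covalent cross-links, stood at 14.6, 33.5 and 53.7 CPM in the mutants and at 2.68, 1.73 and 2.47 CPM in the controls. Loxl2, a relative active on type IV collagen, stood at 6.98, 9.04 and 14.8 CPM in the mutants and at 1.92, 1.49 and 1.59 CPM in the controls. All mutants were above all controls for both, and mutant 3 was highest (3.89 ± 0.54, adjusted p = 0.0133, and 2.62 ± 0.40, adjusted p = 0.016). Of 11 genes for collagen degradation 1 rose and 0 fell (median 1.24). Mmp14, a membrane-bound collagenase, stood at 165.7, 58.7 and 169 CPM in the mutants and at 39.1, 43.5 and 42.2 CPM in the controls. Mutant 2 was only slightly above the controls (1.65 ± 0.38, adjusted p = 0.0446), and the call was lost without mutant 1 or mutant 3 and in 2 other alternatives. No gene of these 2 lists was lower at an unadjusted p under 0.05 in edgeR or called lower by DESeq2.

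Among receptors and fibril partners 1 gene each passed, and both were lower. Of 9 collagen receptor genes 0 rose and 1 fell (median -0.12), namely Ddr1, a collagen-binding tyrosine kinase, at 3.17, 6.75 and 4.64 CPM in the mutants and 27.4, 24.2 and 29.3 CPM in the controls. All mutants were below all controls (-2.44 ± 0.36, adjusted p = 0.0152). Of 12 fibril-associated matrix genes 0 rose and 1 fell (median -0.73), Tnxb, which encodes the fibril-spacing protein tenascin-X, at 25.8, 24.5 and 19.8 CPM in the mutants and 53.8, 60.4 and 64.4 CPM in the controls. Its groups were also apart (-1.33 ± 0.19, adjusted p = 0.0144). At an unadjusted p under 0.05 edgeR had 1 receptor and 1 partner higher, and DESeq2 called 1 and 2. The calls of P4hb, Sparc, P4ha3, Lox, Loxl2, Mmp14, Ddr1 and Tnxb were each lost without any 1 control, with adjusted p between 0.0811 and 0.186.

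The other basement membrane components did not pass with Col4a1 and Col4a2. Of 15 genes for laminins, nidogens, perlecan and related proteins, edgeR called 0, with 2 higher and 2 lower at an unadjusted p under 0.05, and DESeq2 called 1 higher and 2 lower (median 0.35). Nid1, the most abundant of them, stood at 48.8, 67.0 and 83.1 CPM in the mutants and at 51.9, 49.15 and 56.5 CPM in the controls. Its groups overlapped (0.35 ± 0.22, adjusted p = 0.336). Hspg2, the gene of perlecan, stood at 53.2, 55.6 and 103 CPM in the mutants and at 41.7, 48.4 and 52.8 CPM in the controls, all mutants just above all controls (0.57 ± 0.28, adjusted p = 0.219). Lamb2, a laminin chain, stood at 13.9, 26.1 and 16.1 CPM in the mutants and at 41.4, 44.0 and 53.1 CPM in the controls. It lay lower in all mutants and just missed the threshold (-1.27 ± 0.31, adjusted p = 0.0512). Of 11 genes of the TGF-beta axis, a main inducer of collagen genes, edgeR called 0, with 1 higher and 4 lower at an unadjusted p under 0.05, and DESeq2 called 1 higher and 2 lower (median -0.47). Tgfb1 itself stood at 348, 493 and 615 CPM in the mutants and at 311, 345 and 360.3 CPM in the controls, with overlapping groups (0.53, adjusted p = 0.204).

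**Figure D5:**
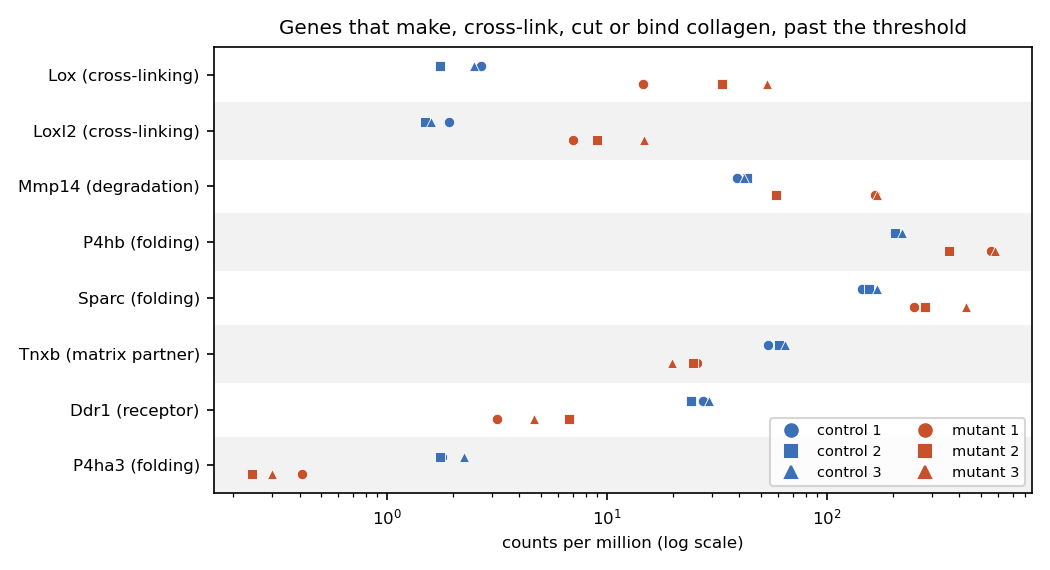
Level in CPM (log axis) of the 8 genes from the lists on collagen folding, cross-linking, degradation, receptors and partners that passed the threshold, with 1 point for each of the 3 control (blue) and 3 mutant (red) libraries. Lox, Loxl2, Mmp14, P4hb and Sparc had all mutants to the right of the controls, and Tnxb, Ddr1 and P4ha3 had all mutants to the left.

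Cells that make fibrillar collagen were followed through their markers. Over all tested genes edgeR called 5.08% higher and 6.90% lower, and DESeq2 called 10.3% and 11.1%. Summed, 8 fibroblast and mesenchyme markers stood at 135, 254 and 137 CPM in the mutants and 535 to 579 CPM in the controls. None was at 0. All mutants lay below all controls for 6 of 8 (22.6% of all genes) and above them for 1 (18.0% of all genes). Only Thy1 was called, and it was lower. Thy1 is also a gene of T cells, and Cd3e, Cd3d, Cd8a and Trbc2 were lower in all mutants too. Which cells the fall of Thy1 came from was not tested. The 6 smooth muscle markers summed to 18.2, 77.0 and 68.2 CPM in the mutants and to 170.5 to 241 CPM in the controls, with Des and Myh11 lower and none at 0. Mutant 2, highest among the mutants for Col1a1, Col1a2, Col3a1 and Col14a1, was also highest for both sums. The match was not particular to these lists. Mutant 2 was also the highest mutant for the T-cell, neutrophil and monocyte, erythroid and pancreas sums below. The B-cell sum was highest in mutant 1, and the endothelial and megakaryocyte sums were highest in mutant 3. Within the fibroblast list Thy1 was highest in mutant 1, Pdgfrb in mutant 3 and the others in mutant 2. Markers of mesothelium and capsule summed to 7.34 to 9.90 CPM in the mutants and 11.2 to 19.3 CPM in the controls, with 0 of 5 called by edgeR (1 lower at an unadjusted p under 0.05, and 1 lower by DESeq2) and Upk3b at 0 in at least 1 library. Their part in the collagen values was not tested. T-cell markers (1 of 5 lower, Trbc2) summed to 12.9, 256 and 22.5 CPM in the mutants and 414 to 533 CPM in the controls, with none at 0. Of the sum in mutant 2, 197 CPM were Cd4, while the 4 other markers were below the controls in all mutants. Neutrophil and monocyte markers (Ctsg and Mpo higher of 6) summed to 153, 2410 and 621 CPM and to 314 to 383 CPM, and erythroid markers (Epor higher of 5) to 4333, 42520 and 2050 CPM and to 51230 to 80160 CPM. Of these calls, Epor held in 6 of 16 alternatives, Mpo in 11, Trbc2, Thy1 and Myh11 in 12 each, Des in 13 and Ctsg in 14. Pancreas markers, checked because that organ adjoins the spleen, summed to 9.13 to 51.5 CPM in the mutants and 16.8 to 24.3 CPM in the controls. Nearly all of this sum was 1 gene, Cela1, at 36.4, 51.1 and 9.13 CPM in the mutants and 16.3, 23.6 and 16.02 CPM in the controls. Prss2, Cpa1 and Pnlip were at most 0.328 CPM in any library, and each was at 0 in at least 1 library. Of 3 tested genes 0 were called by edgeR or DESeq2, and 0 had an unadjusted p under 0.05 in edgeR. Which cells the Cela1 reads came from was not tested.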

How the data were processed

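Strand-marking, poly-A selected libraries were made from total RNA of spleen pieces, per the labels' protocols. The authors deposited whole-number counts per Ensembl gene without normalization. Per the submitters' processing notes, the tools STAR 2.5.3a and limma and the builds mm10 and GRCm38 are listed with no role. Not given in the sources used here were the annotation release, the strand setting and the treatment of reads with several mapping sites.

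Of 31771 identifiers 31669 matched a symbol in GENCODE M21, and 102 did not. Every column matched 1 sample by title (0 columns left over). The genotype label gave the groups, and replicate numbers only name animals. No library was a copy of another: pairs of controls differed by a chi-square of 22.0 to 86.2 for each gene, and pairs of mutants by 738 to 1490. CPM were computed from the deposited counts and library totals. Genes were tested by edgeR (4.0.16, under R 4.3.3), with TMM scaling, its expression filter and robust quasi-likelihood fits over 19573 genes, and with Benjamini-Hochberg adjustment at 0.05. The SE is the size of the log2 fold change over the root of its F statistic. Chain ratios used a pseudocount of 0.1 CPM and exact 2-sided permutation tests. On simulated counts of 19093 genes the procedure recovered 0% of 2-fold, 4.69% of 4-fold and 54.7% of 16-fold changes (64 genes each), with 4 false calls. The simulation gave both groups the same variation for each gene, unlike the 72.7% in mutants and 17.1% in controls here. These rates therefore hold for that setting and were not obtained for groups of unequal spread.

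Genes given library by library were those past the threshold, those with a mean of at least 5 CPM in a group, and both chains of each ratio. From lists of related genes, called members or the most abundant were named. Col4a3, Col8a1, Serpinh1, Hspg2, Lamb2, Cdh5, Xist and the collagens given as ranges were named after their values were seen. The members and lists were chosen with earlier results of these data known. A listed marker gene is not reported here. Alternatives were other scalings, filters and tools (DESeq2 1.42.0, limma-voom 3.58.1), omission of haemoglobin and immunoglobulin genes, and each library left out.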

Additional observations from a re-analysis of the deposited data

How the results depend on the processing

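No paired analysis was possible because the replicate numbers only name the animals. The collagen genes called higher, 3 as reported, were 6 with DESeq2, 5 with limma-voom and sample weights and 9 for mutant 3 alone against the controls, a comparison chosen after seeing the data; with 1 library left out they ranged from 0 (without any control) to 6 (without mutant 1). Those called lower, 2 as reported, were 6 with DESeq2, 4 with limma-voom, 1 without a low-count filter, 1 with the stricter filter of 1 CPM in 3 libraries, which does not test Col19a1, and 17 for mutant 3 alone; with 1 library left out they ranged from 1 to 8 (without mutant 2). Calls over all genes moved as well, over the same omissions from 0.0195% to 13.6% higher and from 0.581% to 15.3% lower, and were 25.7% and 26.9% for mutant 3 alone. Of all genes, DESeq2 called 10.3% higher and 11.1% lower, and limma-voom with sample weights called 9.41% higher. The share called lower was 10.2% with limma-voom, 3.42% without a low-count filter and 7.88% with the stricter filter. Fewer animals enter the fit when 1 is left out, and otherwise the cause was not tested. Signs turned only for genes that were not called. Col1a1 gave -0.03 with limma-voom, -0.03 with a weight for each group and, with 1 library left out, -0.37 (without mutant 2) to 0.75 (without mutant 1). Col3a1 gave -0.29, -0.32 and -0.29 under limma-voom, sample weights and group weights, -0.95 (without mutant 2) to 0.66 (without mutant 1) with 1 library left out, and -0.46 for mutant 3 alone. Col16a1 gave -0.18, -0.51 and -0.18 in the same 3 fits, -0.88 (without mutant 1) to 0.63 (without mutant 3) with 1 left out, and -1.14 for mutant 3 alone. Col14a1 gave 0.20 without mutant 1, 0.16 without mutant 3 and, at its lowest, -1.32 without mutant 2. The near-zero difference in log2 of Col4a1 over Col4a2 ranged from -0.12 (without mutant 1) to 0.11 (without mutant 2), and that of Col6a1 over Col6a2 from -0.15 (without mutant 1) to 0.12 (without mutant 3). Of the called genes, Col4a1, Col4a2 and Col5a1 kept the call in 13 of 16 alternatives, Col6a4 in 16, and Col19a1 in 8 of 15. Counting error matters most for the scarce genes: 11 collagen genes were under 1 CPM in every library. Some other genes had few counts in single mutants, such as Col6a5 with 2 in mutant 1 and Col17a1 with 8 in mutant 3.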

Other observations

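Mutant 1 stood apart in a small group of matrix genes that were chosen after their values were seen. Fap, the gene of a serine protease of activated fibroblasts that cuts denatured collagen, stood at 387 CPM in mutant 1, 4.81 in mutant 2 and 1.38 in mutant 3, against 0.492 to 0.866 CPM in the controls (adjusted p = 0.0889). The same animal was the highest for Col28a1 and Col16a1, at 21.7 and 42.1 CPM, and the lowest of all libraries for Col1a1, Col1a2, Col3a1, Col5a2, Col12a1 and Col14a1.

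Collagen genes that lie side by side did not all move alike. Col3a1 and Col5a2, which converge on chromosome 1 with 24614 bases between their ends, were both highest in mutant 2 and lowest in mutant 1. Col6a1 and Col6a2, in tandem on chromosome 10 with 85161 bases between them, were also highest in mutant 2. Col4a3 and Col4a4, with starts 71 bases apart, differed: Col4a3 was highest in mutant 3 and Col4a4 in mutant 1.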
